A study of Mus musculus with 6 samples.

Results

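The 10 genes described here build the postsynaptic side of the mouse neuromuscular junction: the acetylcholine receptor subunit genes Chrna1, Chrnb1, Chrnd and Chrne, the clustering genes Musk, Lrp4, Dok7 and Rapsn, and the acetylcholine breakdown genes Ache and Colq. They were chosen by gene symbol and joined by Ensembl identifier, 10 of the 20672 genes listed in at least 1 of the count tables. All 10 were listed in every tissue's count table, and all 10 passed the filter on low counts. Chrna1, Chrnd and Chrne had no more than 8 counts in either fat pad library, so they passed that filter through the other tissues.

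The neuromuscular junction is the synapse where a motor nerve ending releases acetylcholine onto a muscle fibre. The nerve secretes agrin, which binds Lrp4 on the fibre. Lrp4 activates the receptor tyrosine kinase Musk, the adaptor Dok7 holds Musk active, and the scaffold protein Rapsn packs acetylcholine receptors beneath the nerve ending. Acetylcholinesterase, encoded by Ache and anchored in the synaptic basal lamina by the collagen tail Colq, ends the signal. The adult receptor carries the epsilon subunit (Chrne), and the fetal or denervated receptor carries the gamma subunit (Chrng) in its place.

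The measurement was bulk RNA-seq of 6 mouse libraries, 2 from each of 3 tissues of the knee and hindlimb region: the infrapatellar fat pad (adipose tissue behind the patellar tendon), the rectus femoris (part of the quadriceps) and the Achilles tendon. The series title speaks of female mice and letrozole, an aromatase inhibitor that lowers oestrogen. Strain, age, dose and duration are not stated in the labels, and the drug's name stands only in the titles of the fat pad libraries, in both of them. No label separates a treated from a control library within a tissue, so letrozole was not compared here, and any treatment that the fat pad titles mark cannot be told apart from tissue. The tissue of each library was read from the label that names the 3 tissues, because the remaining tissue labels give the fat pad throughout. No label states that a tissue's 2 libraries are from different animals, so the p-values below reflect variation among these libraries alone, and that may be technical. Library numbers follow accession order, and no label pairs them across tissues. The titles of a tissue's libraries share a code that differs between tissues, so anything that goes with that code cannot be told apart from tissue.

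Promoter windows from RefSeq were used for 6 of the 10 genes, from 250 bases before to 50 bases after a transcription start on mouse build GRCm38.p6. Those of Chrne, Chrna1, Musk and Chrnb1 are printed to set Chrne, the gene furthest below muscle in the tendon among those called, beside the other receptor genes with a window and Musk, which was not called there. Each is written 5′ to 3′ on the gene's own strand, and capitals mark matches to 2 motifs known from synaptic muscle genes: the E-box CANNTG (N is any base), bound by myogenic factors, and the N-box CCGGAA, searched on both strands and bound by ETS-family factors. No match overlapped another. The windows lie at chr11:70619145-70619444 on the minus strand (Chrne), chr2:73580289-73580588 on the minus strand (Chrna1), chr4:58285712-58286011 on the plus strand (Musk) and chr11:69795888-69796187 on the minus strand (Chrnb1).
Chrne: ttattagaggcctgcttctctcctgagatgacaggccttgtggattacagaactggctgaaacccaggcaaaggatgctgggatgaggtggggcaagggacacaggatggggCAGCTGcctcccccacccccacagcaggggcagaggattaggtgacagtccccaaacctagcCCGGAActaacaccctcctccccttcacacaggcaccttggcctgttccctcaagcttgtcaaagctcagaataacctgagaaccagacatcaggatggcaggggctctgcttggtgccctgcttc
Chrna1: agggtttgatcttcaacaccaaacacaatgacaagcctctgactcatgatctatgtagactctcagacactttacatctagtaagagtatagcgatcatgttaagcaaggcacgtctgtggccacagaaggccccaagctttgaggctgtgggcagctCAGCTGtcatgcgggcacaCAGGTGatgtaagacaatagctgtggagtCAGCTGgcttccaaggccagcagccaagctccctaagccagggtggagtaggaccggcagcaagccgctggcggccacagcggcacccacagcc
Musk: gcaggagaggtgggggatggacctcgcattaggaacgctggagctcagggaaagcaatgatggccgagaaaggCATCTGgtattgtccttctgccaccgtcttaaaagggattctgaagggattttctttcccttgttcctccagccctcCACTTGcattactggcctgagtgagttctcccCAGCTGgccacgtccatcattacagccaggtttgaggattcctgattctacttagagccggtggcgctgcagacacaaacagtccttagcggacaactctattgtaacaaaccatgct
Chrnb1: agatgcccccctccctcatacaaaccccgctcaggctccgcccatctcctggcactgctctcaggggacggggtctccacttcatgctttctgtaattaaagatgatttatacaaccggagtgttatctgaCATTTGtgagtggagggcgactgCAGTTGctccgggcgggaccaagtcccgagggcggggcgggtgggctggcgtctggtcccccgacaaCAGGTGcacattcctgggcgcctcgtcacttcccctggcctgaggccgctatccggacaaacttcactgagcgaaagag
The Chrne window held an N-box starting 76 bases upstream of the start and an E-box of the form CAGCTG starting 138 bases upstream. Chrna1 held CAGCTG at 92 and 44 bases upstream and CAGGTG at 73. Musk held CAGCTG at 68 bases upstream and 2 other E-boxes, and Chrnb1 held 3 E-boxes, none of them CAGCTG. Of the 6 genes with a window only Chrne had an N-box. Among all 32851 windows of the table, 14.9% held the N-box, 72.3% an E-box, 16.3% CAGCTG and 2.05% both the N-box and CAGCTG. The other windows, those of Ache and Dok7, held 1 E-box each apart from a second Dok7 window that held none.

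The fat pad libraries held 83132413 and 106319037 counts in total, the muscle and tendon libraries between 56216295 and 62063826. Counts are given as CPM, counts per 1000000 after TMM scaling, and 3 counts, the limit that a count of 0 allows, equal at most 0.05337 CPM before that scaling. Intervals and limits cover counting error only. Marker genes followed the tissue labels: the 13 fast muscle markers summed to 312232 and 277513 CPM in the rectus femoris against 148 and 126 in the fat pad, 6 adipocyte markers to 62723 and 69956 in the fat pad against 227 and 697 in the muscle, and 6 tenocyte markers to 7779 and 11988 in the tendon against 1159 and 727 in the muscle. The tendon libraries also carried 24288 and 71618 CPM of fast muscle markers, and 13479 and 6999 of the 9 slow muscle markers against 158 and 226 in the muscle. The deposited TPM columns ordered library 2 against library 1 as the counts did in the fat pad (Spearman correlation 1.000 across 11643 genes) but not in muscle (-0.435, 10243 genes) or tendon (-0.324, 11570 genes), where genes are not independent replicates. Counts are therefore the values used, and TPM is named where it gave another answer.

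In the rectus femoris, all 10 junction genes were present in both libraries. Levels between genes are compared as CPM per kilobase of exon, with merged exon lengths from GENCODE M21. Rapsn stood highest at 23.2 ± 4.14 (SD, n = 2), followed by Chrnb1 at 20.7 ± 0.384, Ache at 14.6 ± 0.0937 and Chrne at 12.8 ± 2.41 on that scale. Chrna1 had 6.59 ± 0.228, Dok7 5.06 ± 0.0436 and Colq 3.45 ± 0.46. Musk at 2.03 ± 0.694, Chrnd at 1.52 ± 0.384 and Lrp4 at 1.41 ± 0.241 closed the order. Rapsn overlapped Chrnb1 between libraries, Ache overlapped Chrne, and Chrnd overlapped both Musk and Lrp4, so those neighbours do not differ beyond their spread. The other neighbours in that order did not overlap. By the deposited TPM the order in muscle differed. Chrnb1 stood highest there (75.2 and 70.9 TPM), apart from Rapsn (34.7 and 34.8). Chrna1 (31.6 and 28.9 TPM) overlapped Chrne (30.7 and 28.2). Of their exonic bases, Rapsn, Ache and Colq share 0.222%, 2.12% and 5.23% with a predicted gene, on the opposite strand for Rapsn and Ache and on the same strand for Colq. Reads there cannot be told apart, because the strand setting is not given in the sources used here. The other 7 genes share none.

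The order was different in the other tissues. In the Achilles tendon Rapsn (11.1 ± 5.26 CPM per kilobase) and Chrnb1 (8.02 ± 3.09) again stood highest, but Dok7 (4.11 ± 1.76), Ache (3.55 ± 3.68), Lrp4 (2.82 ± 0.609) and Musk (2.37 ± 1.43) came next, ahead of Colq (1.60 ± 0.644) and Chrna1 (1.47 ± 0.655). Chrne (0.394 ± 0.374) and Chrnd (0.127 ± 0.180) stood lowest. Neighbours in the tendon overlapped except between Chrnb1 and Dok7 and between Chrna1 and Chrne. By the deposited TPM the tendon order differed, with Chrna1 (28.9 and 31.0 TPM) above Rapsn (27.4 and 17.9). In the fat pad Chrnb1, at 2.07 ± 0.115 CPM per kilobase, stood apart from the other 9 genes. Rapsn followed at 0.283 ± 0.131, Lrp4 at 0.211 ± 0.0172 and Ache at 0.159 ± 0.0531, and the remaining 6 genes had means of at most 0.103 (Colq). By the deposited TPM, Lrp4 (0.573 and 0.528) lay above Rapsn (0.255 and 0.52) in the fat pad.

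**Figure D1:**
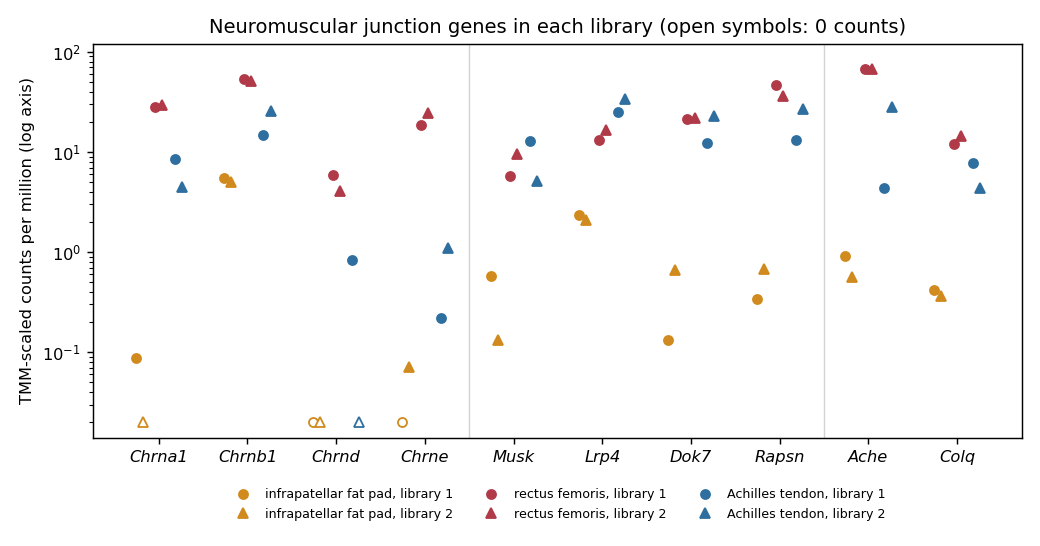
Level of each of the 10 genes in each of the 6 libraries, as TMM-scaled counts per 1000000 on a log10 axis, with a point for each library and open symbols at the foot of the axis for 0 counts. The fat pad points of Chrnb1 lie at 5.45 and 5.04 CPM and those of the other 9 genes at or below 2.35 CPM, while muscle points run from 4.10 CPM (Chrnd) to 67.8 CPM (Ache).

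All 4 receptor subunit genes had lower levels in fat pad than in rectus femoris, by amounts that differed greatly among them. Chrna1, the subunit that carries most of the acetylcholine binding site, had 0.0885 and 0 CPM in the fat pad libraries (8 and 0 counts) and 28.2 and 29.6 in the muscle libraries (log2 fold change -9.42 ± 0.93, SE; edgeR adjusted p = 0.000193). Chrne, the adult subunit, had 0 and 0.0711 CPM in fat pad against 18.8 and 24.6 in muscle (log2 fold change -9.08 ± 1.18, adjusted p = 0.000657). The size of both changes is uncertain, because at most 8 fat pad counts set it. Without fat pad library 1 or 2, Chrna1 had -13.98 and -8.33, and Chrne had -8.18 and -13.47. On log2(TPM + 1) the values were -4.91 and -4.88. Chrnd, the delta subunit, had no count in either fat pad library and 5.88 and 4.10 CPM in muscle, at least 167-fold lower against a limit of 3 counts per library (adjusted p = 0.0121). Chrnb1, the beta subunit, was the exception in level: it kept 5.45 and 5.04 CPM in the fat pad (493 and 567 counts) beside 53.1 and 51.7 in muscle (log2 fold change -3.32 ± 0.30, adjusted p = 0.000141). Both fat pad libraries lay below both muscle libraries for all 4 genes. In bulk tissue, fewer cells of a type and less RNA per cell cannot be told apart.

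The clustering genes were lower in the fat pad as well. Rapsn had 0.343 and 0.676 CPM there against 47.1 and 36.6 in muscle (log2 fold change -6.34 ± 0.52, adjusted p = 9.86e-05). Dok7 had 0.133 and 0.667 CPM against 21.5 and 21.8 (-5.73 ± 0.73, adjusted p = 0.000607), and Musk had 0.575 and 0.133 against 5.81 and 9.51 (-4.45 ± 0.81, adjusted p = 0.00308). Lrp4, a receptor that many tissues outside muscle also make, differed least of the 10 genes in log2 fold change: 2.35 and 2.09 CPM in the fat pad against 13.1 and 16.6 in muscle (-2.74 ± 0.26, adjusted p = 0.000177). The genes of acetylcholine breakdown were lower too. Ache had 0.907 and 0.560 CPM in fat pad against 67.8 and 67.1 in muscle (-6.53 ± 0.93, adjusted p = 0.000987), and Colq 0.420 and 0.365 against 11.9 and 14.4 (-5.06 ± 0.43, adjusted p = 0.00011).

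Thus 10 of 10 genes were called lower in fat pad than in muscle, where 29.6% of the 15856 genes tested were called lower and 59.4% were called in either direction. Among the 10, Chrna1, Chrnd and Chrne passed the filter on low counts only through the other tissues. Their direction was therefore set in advance and adds nothing to this count. In all 10 both fat pad libraries lay below both muscle libraries, as in 39.7% of all genes. Their median log2 fold change was -6.03, and it stayed at -6.03 with Chrnd held at its bound, beside 0.14 over all genes tested. Chrnd lost its call without fat pad library 2 (adjusted p = 0.0538).

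Against the Achilles tendon, the fat pad was again called lower for all 10 genes, where 31.4% of genes were called lower and 58.5% in either direction. This comparison shares the fat pad libraries with the preceding one, and the same limit holds for Chrna1, Chrnd and Chrne. The log2 fold change was -7.26 ± 0.88 for Chrna1 (adjusted p = 0.000511), -5.42 ± 0.72 for Dok7 (adjusted p = 0.000756) and -5.28 ± 0.50 for Rapsn (adjusted p = 0.000194). The values of Musk (-4.67 ± 0.82), Ache (-4.49 ± 0.85), Chrne (-4.06 ± 1.09), Colq (-3.95 ± 0.41) and Lrp4 (-3.74 ± 0.27) lay closer together, with adjusted p-values between 9.37e-05 for Lrp4 and 0.016 for Chrne. Chrnb1 differed least, by -1.95 ± 0.29 (adjusted p = 0.00116). The median was -4.58, or -4.27 with Chrnd at its bound, beside -0.01 over all genes.

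In 9 of the 10 genes both fat pad libraries lay below both tendon libraries, as in 41.1% of all genes. The exception was Chrnd, at least 14-fold lower in fat pad than in tendon (adjusted p = 0.0454), whose libraries overlapped because tendon library 2 had no count either. Its call was lost in 7 of the alternative fits: by DESeq2 (adjusted p = 0.0780), with a replicate block (0.0596), without fat pad library 1 (0.127) or 2 (0.146), without rectus femoris library 1 (0.0710) or 2 (0.0688), and without tendon library 1, when neither tissue had a count. Fitted with only the fat pad and tendon, Chrnd did not pass the filter on low counts and was not tested. Chrne lost its call in 3 fits, with adjusted p-values of 0.0909 when only the fat pad and tendon were fitted, 0.0655 without fat pad library 1 and 0.0617 without tendon library 2.

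**Figure D2:**
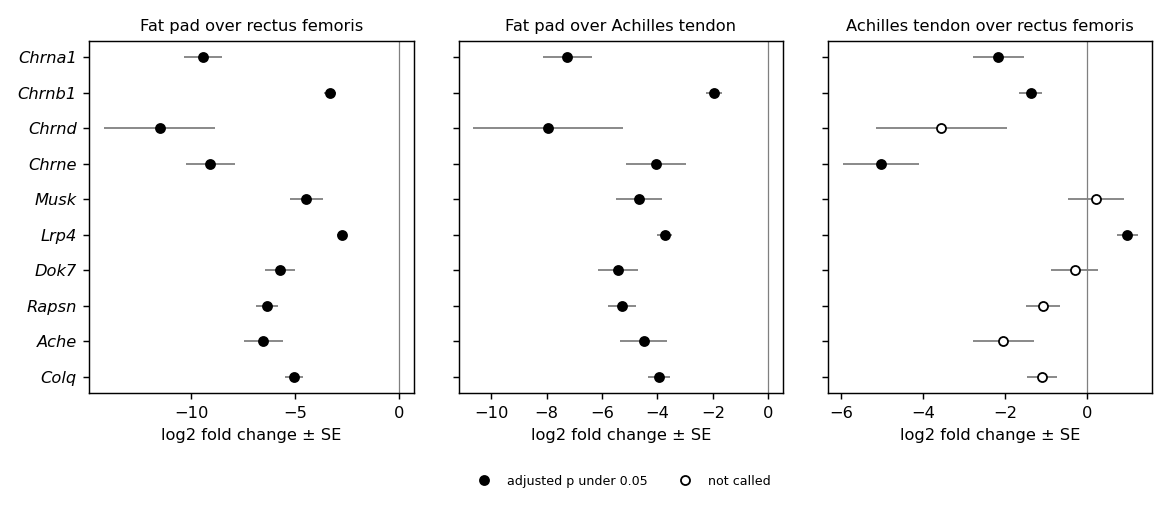
Log2 fold change of each of the 10 genes with its standard error in the 3 comparisons of tissues (edgeR, all 6 libraries), with filled points for an adjusted p under 0.05, open points for genes not called, and a separate x axis range in each panel. All 10 points lie left of 0 for the fat pad against muscle and against tendon; for tendon against muscle they run from -5.03 (Chrne) to 0.99 (Lrp4), and the points of Chrnd, which has libraries at 0, depend on the prior count.

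Between the Achilles tendon and the rectus femoris the 10 genes did not move together. Of the 4 receptor subunit genes 3 were lower in the tendon, Lrp4 was higher, and Musk and Dok7 lay close to their muscle level. Of the 10 genes, 3 were called lower (12.7% of all genes were), 1 was called higher (13.3% of all genes were) and 6 were not called, where 26.0% of all genes were called in either direction. At an unadjusted p under 0.05 there were 7, and DESeq2 called 6. The share of all genes under those criteria is not given here or for the lists below, so such counts have no background. Both tendon libraries lay below both muscle libraries in 7 of the 10 genes (33.7% of all genes) and above them in 1 (36.4%). The median log2 fold change was -1.24, beside 0.10 over all genes.

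Chrne showed the biggest difference among the called genes. Its tendon libraries had 0.219 and 1.11 CPM (17 and 81 counts) against 18.8 and 24.6 in muscle (log2 fold change -5.03 ± 0.93, adjusted p = 0.0142). Chrna1 had 8.49 and 4.43 CPM in tendon (-2.16 ± 0.62, adjusted p = 0.0433) and Chrnb1 had 14.8 and 25.8 (-1.37 ± 0.28, adjusted p = 0.0181). For these 3 genes every tendon library lay below every muscle library. Chrnd had 0.837 and 0 CPM in the tendon and was not called (-3.56 ± 1.60, adjusted p = 0.150).

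Lrp4 was the only one of the 10 genes called higher in the tendon, with 25.1 and 34.1 CPM against 13.1 and 16.6 in muscle (log2 fold change 0.99 ± 0.25, adjusted p = 0.0301). Its libraries did not overlap. Musk had 12.8 and 5.11 CPM in the tendon, on either side of the muscle values of 5.81 and 9.51 (0.22 ± 0.69, adjusted p = 0.832). Dok7 had 12.3 and 22.9 CPM, again on either side of 21.5 and 21.8 (-0.30 ± 0.58, adjusted p = 0.728). Rapsn had 13.3 and 26.7 CPM in the tendon, below both muscle libraries, and was not called (-1.07 ± 0.41, adjusted p = 0.0951).

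The esterase and its anchor were also below muscle in both tendon libraries without a call. Ache had 4.38 and 28.4 CPM in the tendon (-2.04 ± 0.75, adjusted p = 0.0847), and Colq had 7.83 and 4.37 (-1.10 ± 0.36, adjusted p = 0.0621).

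These tendon calls rest on few libraries: without rectus femoris library 1 or without library 2, 0 of the 10 genes were called (5 and 4 at an unadjusted p under 0.05, edgeR), as 43 and 19 of all genes were. Without a tendon library, Chrna1 lost its call (adjusted p = 0.0513 without library 1 and 0.0871 without library 2), as it did by DESeq2 (adjusted p = 0.160), and Lrp4 lost it without tendon library 2 (0.76, adjusted p = 0.102). Ache was called lower without either tendon library, at -1.26 without library 1 (adjusted p = 0.0469) and -3.94 without library 2 (adjusted p = 0.00191), and so was Chrnd (adjusted p = 0.0100 and 0.0471). Colq was called lower without tendon library 1 (-1.60, adjusted p = 0.0466) and Rapsn without tendon library 2 (-1.65, adjusted p = 0.0261). Scaling by total counts, which moves the median gene by 0.73 on the log2 scale, left Chrne lower and Lrp4 higher, with Chrna1 at -1.41 (adjusted p = 0.132) and Chrnb1 at -0.66 (adjusted p = 0.0744). In the deposited TPM, tested with limma on log2(TPM + 1), Chrna1 was not called (-0.01, adjusted p = 0.970), with 31.6 and 28.9 TPM in muscle and 28.9 and 31.0 in tendon. On the same scale Ache was called lower (-2.73, adjusted p = 0.00134), Chrnb1 and Chrne were called lower as in the counts (-0.81 and -3.44), and Musk (0.78, adjusted p = 0.0328) and Lrp4 (1.36, adjusted p = 0.0386) were called higher.

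Of the 13 fast muscle markers 7 were called lower in the tendon than in the rectus femoris (12.7% of all genes were) and none higher. All 9 slow muscle markers were called higher (13.3% of all genes were). Fast and slow markers together took 22.7% and 21.5% of all counts in the muscle libraries and 4.97% and 9.22% in the tendon libraries. Each gene's counts were therefore also set against those marker counts, within each library and with no test. Per 1000000 marker counts, Chrne had 60.2 and 88.4 in muscle against 5.80 and 14.2 in tendon. Its mean was 7.44-fold lower in tendon, and it was the only one of the 10 genes with both tendon libraries below both muscle libraries. Lrp4 had 41.8 and 59.9 in muscle and 664 and 434 in tendon, 10.8-fold higher. Chrne kept the direction of its CPM values. For Lrp4, already higher in tendon by CPM, the smaller marker share there fixed the direction in advance.

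Chrnb1, Rapsn and Colq, below muscle in both tendon libraries by CPM, were above it in both by this ratio. Musk and Dok7, which overlapped by CPM, were above it too. Musk had 18.6 and 34.2 per 1000000 marker counts in muscle and 338 and 65.0 in tendon, and Dok7 had 68.9 and 78.4 against 324 and 291. Rapsn had 151 and 132 in muscle and 352 and 340 in tendon, and Chrnb1 had 170 and 186 against 391 and 328. Colq was higher by a narrow margin, with 38.0 and 51.7 against 207 and 55.6. Per marker count, 6 of the 10 genes were thus higher in both tendon libraries, 1 was lower, and Chrna1, Chrnd and Ache overlapped. Because the markers took a smaller part of the tendon libraries, this ratio is raised there for every gene. It was not computed over all genes, so these counts do not show that the junction genes stand out. The median log2 ratio of tendon to muscle was 1.15. It was 1.57 against the fast markers alone and -6.87 against the slow markers alone, which were nearly absent from the rectus femoris, so the direction depends on the markers used. The fibre types of the tendon's muscle RNA differ from those of the rectus femoris, and their part in these ratios was not tested.

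**Figure D3:**
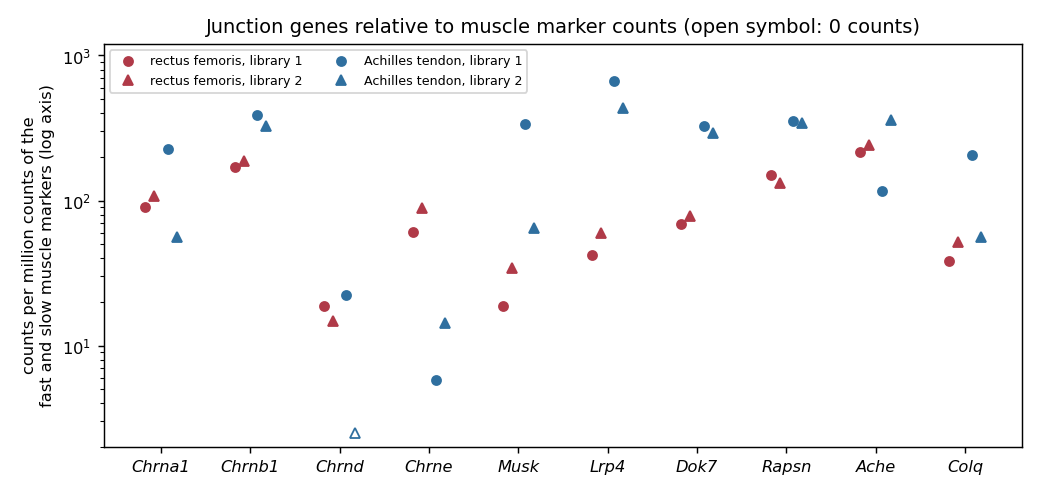
Counts of each of the 10 genes per 1000000 summed fast and slow muscle marker counts in the 2 rectus femoris and the 2 Achilles tendon libraries, on a log10 axis, with a point for each library. The tendon points of Chrne (5.80 and 14.2) lie below its muscle points, those of Lrp4 (664 and 434) far above them, and the Chrnd count of 0 in tendon library 2 is drawn as an open symbol at the foot of the axis.

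The subunit make-up of the receptor transcripts differed between tissues. Chrna1, Chrnb1, Chrnd, Chrne and Chrng were expressed as shares of their summed CPM per kilobase of exon. Chrne made up 27.6% and 33.8% of that sum in the rectus femoris and 1.58% and 5.54% in the Achilles tendon. Chrnb1 made up 52.0% and 47.5% in muscle, 71.4% and 85.8% in tendon, and 99.1% and 93.4% in the fat pad. The share of Chrna1 overlapped between muscle (15.9% and 15.7%) and tendon (23.7% and 8.49%). These shares are from counts, and none was computed from the deposited TPM, where they would differ. There Chrna1 had 31.6 and 28.9 TPM in muscle and 28.9 and 31.0 in tendon. Chrnb1 had 75.2 and 70.9 TPM in muscle and 45.8 and 37.2 in tendon. Chrng, the fetal subunit that Chrne replaces, had 0 and 4 counts in muscle and 7 and 6 in tendon, at most 0.265% of the sum, and fell below the filter on low counts. The tendon libraries, with the low Chrne share, thus held no more than 7 Chrng counts each. In the fat pad Chrng had 0 and 46 counts. The shares of 1 library sum to 100%, so a lower share of one subunit raises the others, and they were not tested.

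**Figure D4:**
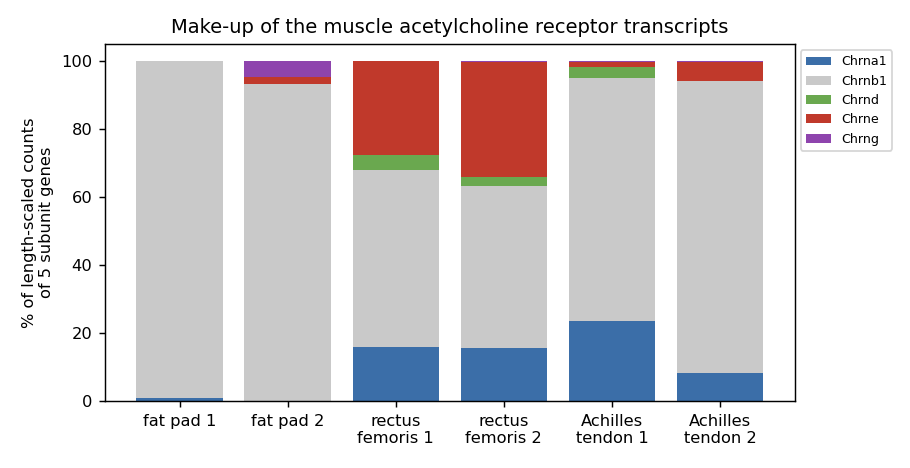
Share of each of the 5 muscle-type receptor subunit transcripts in their summed level per kilobase of exon, as stacked bars from 0 to 100%, one bar for each of the 6 libraries. Chrne takes 27.6% and 33.8% of the bar in the rectus femoris and no more than 5.54% elsewhere, and Chrnb1 fills at least 93.4% in the fat pad.

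The 2 libraries of a tissue were also set side by side, as library 2 over library 1, with 95% exact binomial intervals of the counts. In the rectus femoris none of the 10 genes differed by 2-fold or more, where 5.51% of genes did; the median log2 ratio of the 10 was 0.04. In the Achilles tendon 5 of 10 did, where 14.4% of genes did. Ache was 6.45-fold higher in library 2 (interval 5.78 to 7.30), Chrne 4.64-fold (2.99 to 9.15) and Rapsn 2.00-fold (1.86 to 2.17). Musk was 2.49-fold higher in library 1, and Chrnd was at least 20.3-fold higher there (65 counts against 0). The receptor and clustering genes thus split between the tendon libraries: Chrna1, Chrnd, Musk and Colq were higher in library 1, and the other 6 were higher in library 2.

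Other markers differed between the same tendon libraries. Fast muscle markers summed to 24288 CPM in library 1 and 71618 in library 2, slow muscle markers to 13479 and 6999, and the 8 Schwann cell markers, genes of the glia that cover nerve endings, to 1201 and 92.4. The 6 adipocyte markers summed to 2225 and 267 CPM and the 5 satellite cell markers to 19.9 and 54.0. The satellite cell sum differed through Myod1 (3.54 and 27.8 CPM) and Cdh15 (12.3 and 22.6). Pax7 was level (2.29 and 2.31), and Myf5 (1.46 and 1.03) and Calcr (0.258 and 0.22) were lower in library 2, so that sum does not measure satellite cells. No Schwann or satellite marker was at 0 in either tendon library. Their part in the split of the 10 genes was not tested. In the deposited TPM the split looked different: Ache had 4.96 and 3.90 TPM, Musk 4.30 and 3.50, and Chrnd 2.22 and 2.67, without the differences that the counts of Ache and Chrnd showed. Because TPM and counts disagreed across genes in these tissues, a TPM column may hold another library than the count column of the same name, and this was not settled.

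**Figure D5:**
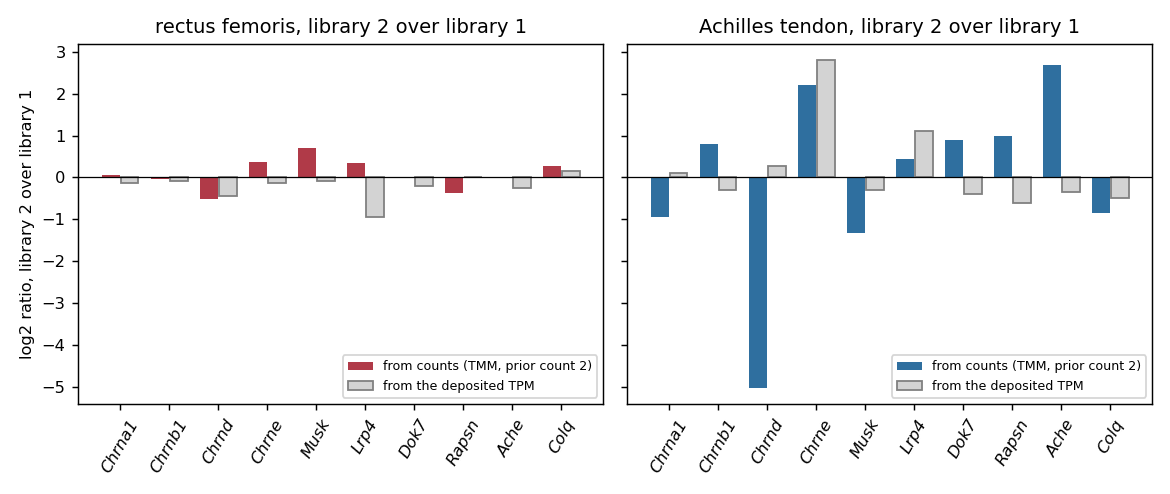
Log2 ratio of library 2 to library 1 for each of the 10 genes in the rectus femoris (left) and the Achilles tendon (right), as bars from 0, with coloured bars from the counts (TMM scaling, prior count 2) and grey bars from the deposited TPM. In counts the muscle bars lie between -0.52 (Chrnd) and 0.71 (Musk), while the tendon bars reach 2.69 for Ache and -5.02 for Chrnd, which had 0 counts in library 2 and whose bar depends on the prior count.

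In the fat pad 7 of the 10 genes had at least 20 counts in 1 library, and 2 of those differed by 2-fold or more, where 19.0% of genes did. Dok7 was 4.50-fold higher in library 2 (12 against 75 counts) and Musk 3.89-fold higher in library 1 (52 against 15 counts). Chrnb1 and Lrp4, the genes with the most counts there, differed by 1.08-fold and 1.12-fold, and their intervals include no difference. Blood and neutrophil markers were unequal between the same libraries, at 35207 and 11134 CPM for the 8 erythroid genes and 1803 and 247 for the 7 neutrophil genes, and their part was not tested. Satellite cell markers summed to 0.365 and 0.267 CPM in the fat pad, with Myf5 and Myod1 at 0 in both libraries.

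Beyond the 10 genes, 8 lists held 91 further genes of the junction, of which 81 were tested. Against muscle, 49 were lower in the fat pad (29.6% of all genes were). There 13 were higher, where 4728 of all 15856 genes were, and 19 were not called. The median log2 fold change was -1.64 beside 0.14 over all genes. Against tendon, 47 were lower (31.4% of all genes were) and 3 higher, where 58.5% of all genes were called in either direction. Between tendon and muscle, 10 were higher, 12 lower and 59 not called, near the 13.3% and 12.7% of all genes, and the median of 0.14 was close to the 0.10 of all genes. Without rectus femoris library 1 or without library 2 only 1 of the 81 was called between tendon and muscle, and total counts gave 35 higher and 2 lower.

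Agrin itself (Agrn), the nerve and muscle ligand of Lrp4, followed Lrp4 in the fat pad with 8.15 and 7.27 CPM against 58.5 and 41.1 in muscle (log2 fold change -2.69 ± 0.26, adjusted p = 0.000187). Unlike Lrp4 it was not called between tendon and muscle, at 63.6 and 46.0 CPM in tendon (0.14 ± 0.25, adjusted p = 0.703). Among its 14 companions in the list of agrin and Musk signalling partners, Pak1, a kinase, was lower in tendon (-2.93 ± 0.40, adjusted p = 0.00771), as were Dnaja3 (-1.02) and Dvl1 (-0.69). Macf1, a linker of actin and microtubules (1.11), Cttn, an actin-binding protein (1.11), and the kinase gene Fyn (0.78) were higher in tendon. Compared with muscle, the fat pad was lower for 10 of these 15 genes (29.6% of all genes). It was higher for 3, Fyn, Cttn and Cdc42, where 4728 of all 15856 genes were higher.

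The muscle sodium channel gene Scn4a, whose protein lies in the junctional folds, had 647 and 716 CPM in muscle, 114 and 194 in tendon and 0.299 and 0.142 in fat pad. Its log2 fold change was -11.61 ± 0.57 in the fat pad (adjusted p = 3.95e-05) and -2.15 ± 0.38 in tendon (adjusted p = 0.0126), both against muscle. Of the 12 genes of the postsynaptic cytoskeleton and sodium channel list, 4 were lower in tendon than in muscle (12.7% of all genes). Among these 4 were Scn4a, Dtna (-1.48) and Ank3 (-0.85). Utrn (1.23 ± 0.31, adjusted p = 0.0321) and Sntb2 (1.24 ± 0.20, adjusted p = 0.0105) were higher. Utrophin, the product of Utrn, is the dystrophin relative of the junction, and many other cell types also express it.

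Of the 14 genes of the synaptic basal lamina and esterase anchors, 11 were lower in fat pad than in muscle (29.6% of all genes). None was higher, where 4728 of all 15856 genes were. Hspg2, the perlecan gene whose product holds the Colq tail, had a log2 fold change of -4.30 ± 0.30 (adjusted p = 6.42e-05). Between tendon and muscle 0 of the 14 were called by edgeR (26.0% of all genes were), against 4 at an unadjusted p under 0.05 and 3 by DESeq2. The laminin beta-2 gene Lamb2 had 496 and 598 CPM in tendon against 323 and 351 in muscle (0.70 ± 0.22, adjusted p = 0.0560). Bche, a second cholinesterase, had 40.5 and 39.9 CPM in the fat pad and was not called in any of the 3 comparisons (adjusted p between 0.206 and 0.979), whereas Ache was called in both fat pad comparisons.

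A further list held 12 genes taken to rise when a muscle loses its nerve, a response that was not measured or checked here for any of them. Of these 12 genes, 3 were higher in tendon than in muscle (13.3% of all genes were). Another 3 were lower (12.7% of all genes were) and 6 were not called. Without either rectus femoris library, no more than 1 of these calls was left. Runx1, a transcription factor, had 27.3 and 28.4 CPM in tendon against 2.67 and 3.41 in muscle (3.19 ± 0.24, adjusted p = 0.00298). The embryonic myosin gene Myh3 (2.81 ± 0.45, adjusted p = 0.0106) and the adhesion gene Ncam1 (1.26 ± 0.20, adjusted p = 0.0103) were also higher. The ubiquitin ligase genes Fbxo32 (-1.34) and Trim63 (-1.51) and the stress gene Gadd45a (-1.93) were lower. Myog, a myogenic factor, had 1.21 and 6.34 CPM in tendon against 8.65 and 14.7 in muscle and was not called (adjusted p = 0.348). Tenocyte markers were higher in the same tendon libraries, and their part in these differences was not tested.

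In the list of neuregulin signalling and synaptic nucleus factors, Erbb2, a neuregulin receptor, was higher in tendon than in muscle (1.89 ± 0.33, adjusted p = 0.0123) and Ufsp1, a gene near Ache with transcripts known at synaptic nuclei, was lower (-2.13 ± 0.53, adjusted p = 0.0303). The ETS-factor gene Gabpa, whose product binds the N-box, had 41.5 and 52.7 CPM in muscle, 48.1 and 49.5 in tendon and 16.6 and 14.7 in fat pad. It was lower in fat pad than in muscle (-1.59 ± 0.19, adjusted p = 0.000459) and was not called between tendon and muscle (0.05 ± 0.19, adjusted p = 0.854), where Chrne, the N-box gene printed above, was lower. Of the other ETS-factor genes of the list, Etv4 (-4.45 ± 0.74, adjusted p = 0.00201) and Etv5 (-1.20 ± 0.25, adjusted p = 0.00602) were also lower in fat pad than in muscle. Etv4 had 6.78 and 24.4 CPM in tendon against 4.58 and 5.55 in muscle and was not called there (1.62 ± 0.64, adjusted p = 0.101).

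The fetal and neuronal nicotinic subunit list held 12 genes, of which 6 were tested. Chrna10 had no count in either fat pad library, with 5.73 and 5.17 CPM in muscle and 0.734 and 4.96 in tendon, at least 182-fold lower than in muscle (adjusted p = 0.00164). Chrna2, Chrna4 and Chrna5, neuronal subunits, were called higher in fat pad than in muscle from levels of at most 2.05 CPM. The 5 glycosylation enzymes whose human counterparts are mutated in congenital myasthenic syndromes split in the fat pad: Alg14 (2.95 ± 0.20), Gmppb (0.88 ± 0.22) and Dpagt1 (0.87 ± 0.21) were higher than in muscle, and Gfpt1 (-2.64 ± 0.29) and Alg2 (-1.47 ± 0.27) were lower. Between tendon and muscle 0 of these 5 were called by edgeR (26.0% of all genes were), against 2 at an unadjusted p under 0.05 and 1 by DESeq2.

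Of the 9 motor nerve terminal genes, 5 were tested. The choline acetyltransferase gene Chat and the choline transporter gene Slc5a7, which mark cholinergic nerve cells, had at most 0.122 CPM in any library, and transcripts of a motor neuron lie largely in its cell body outside these tissues. The synaptobrevin gene Vamp1 was lower in the fat pad (-3.05 ± 0.24, adjusted p = 9.03e-05) and in the tendon (-1.13 ± 0.23, adjusted p = 0.0176) than in muscle. Isl1, a transcription factor of motor neurons and other cells, was called higher in the tendon, with 5.85 and 2.46 CPM against no count in muscle, at least 59.5-fold (adjusted p = 0.0231).

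The genes whose pattern over the 6 libraries came nearest to the median pattern of the 10 were sought among 14378 tested genes outside the lists. Likeness was the root mean square distance between log2 CPM profiles, each centred on its own mean. Pdpr, a regulator of pyruvate dehydrogenase, lay at 0.196, Ppp2r3a, a phosphatase subunit, at 0.284, Rps6ka2, a kinase, at 0.286 and Lsm14b, an RNA-binding protein, at 0.294. Of the 10 genes themselves, Colq (0.350) and Rapsn (0.609) lay closest to their shared median, and Chrne (2.00) and Chrnd (2.07) lay furthest. The named genes were picked as the nearest, so their distances are not a test.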

How the data were processed

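RNA-seq was measured in 6 mouse libraries, 2 from each of 3 tissues. Bowtie2, RSEM 1.3.1, DESeq2 1.4.5 and mouse build GRCm39 are listed in the submitters' processing notes, which do not say what each was used for. Annotation, strand setting and any gene filter: not given in the sources used here. The authors deposited 1 table per tissue of whole-number read counts per gene, not normalized, and 1 of TPM (abundance per transcript length and depth). Columns of per-sample values not used: 0. The authors' tables named 18924 genes, a table of gene names 1740 more, and 8 stayed without a symbol.

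Tissues were compared over the 16964 genes listed in all 3 count tables with edgeR 4.0.16 in R 4.3.3 (TMM scaling, filterByExpr, glmQLFit and glmQLFTest on all 6 libraries with 1 term per tissue, Benjamini-Hochberg adjustment over the 15856 genes tested, threshold 0.05). The biological coefficient of variation was 0.336. SE was computed as the log2 fold change over the square root of F. Against a tissue with 0 counts in both libraries, 3 counts per library were assumed and the fold is a lower bound. The fit was also run on simulated counts in which few genes differed between tissues, unlike these data, so that run does not test the scaling used here. Between the 2 libraries of a tissue, chi-square per degree of freedom was 303 (fat pad), 75.6 (muscle) and 506 (tendon), so they were kept as separate samples. Alternatives were DESeq2 1.42.0, its size factors, total counts, no filter, a replicate block, fits of 2 tissues, each library left out, and limma 3.58.1 on log2(TPM + 1) or log2(TPM + 0.1) over the 14929 genes with TPM in all tissues, where Chrnd has no fat pad value.

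The genes, the pathway lists and the marker lists were chosen with earlier results of these data known. Named from the lists were called genes with a high level or a big change and genes that moved against their list, and the 5 nearest genes by profile distance, apart from results that are not reported here. Of the marker lists without a value in the report, 5 endothelial genes summed to between 186 and 587 CPM over the 6 libraries. The 6 smooth muscle genes summed to between 751 and 4174 CPM. Des, 1 of these 6, had 3591 and 2936 CPM in the rectus femoris, so the sum there is mostly Des and does not measure smooth muscle. Promoter windows are from RefSeq, and those of Chrnd, Rapsn, Colq and Lrp4 were not used here. A planned comparison of protein sequences was not run.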

Additional observations from a re-analysis of the deposited data

How the results depend on the processing

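Over the alternative fits, the fat pad comparisons kept their direction for each of the 10 genes, apart from Chrnd without tendon library 1, where both tissues had no count. Against muscle 137 of 138 alternative values kept the side of the threshold, and against tendon 127 of 137 did. Tendon against muscle was less stable, with 100 values on the same side, 13 gained, 16 lost and 9 reversed. Total counts gave 6367 genes called in place of 4127, 5969 higher and 398 lower, with 2 of the 10 junction genes (1 higher, 1 lower) in place of 4 and 37 of the other junction genes (35 higher, 2 lower) in place of 22. In the fat pad against muscle total counts gave 6350 genes higher and 3420 lower in place of 4728 and 4698. Leaving out 1 library gave between 19 and 4380 genes called for tendon against muscle, between 0 and 6 of the 10 and between 1 and 26 of the others. Without tendon library 1 it was 1816 genes and 13 of the others. In such a fit the tissue left with 1 library is assumed to vary like the others.

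Reversed values were Colq in TPM (0.36 and 0.39), Dok7 with total counts (0.40), without tendon library 1 (0.07) and in TPM (0.06 with either pseudocount), and Musk with the replicate block (-0.06), without rectus femoris library 1 (-0.08) and without tendon library 1 (-0.60). With 1 library left out, Dok7 ranged from -0.82 to 0.07 and Musk from -0.60 to 0.74. None of these was called and the cause was not tested. The median ratio to muscle markers was 1.57 with the fast markers alone and -6.87 with the slow ones alone. No label pairs the replicate numbers across tissues. Deviations of same-numbered libraries correlated at -0.0267, 0.00217 and -0.167, which with 2 libraries per tissue cannot exclude shared animals. The replicate block gave 8649, 8650 and 2759 genes and 10, 9 and 4 of the 10 genes for fat pad against muscle, fat pad against tendon and tendon against muscle. Depth limits Chrna1, Chrnd and Chrne in the fat pad, where no library had more than 8 counts.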
